A study of Homo sapiens with 16 samples.

Results

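The genes described here are 10 regulators of G protein signalling (RGS genes), RGS2, RGS3, RGS4, RGS5, RGS10, RGS12, RGS14, RGS16, RGS17 and RGS20. They were taken by gene symbol from the 63677 gene rows of the count table and joined to their FPKM values by Ensembl identifier. All 10 had a row with values for all 16 libraries. They were picked because RGS4 and RGS5 were almost confined to 1 cell line, so every difference between untreated lines is given as a description, with no test. The study grew the established pancreatic ductal adenocarcinoma lines MiaPaCa2 and PANC1 for 24 hours with 40 nM gemcitabine, a nucleoside analogue used against this tumour, with 50 µM genistein, the soy isoflavone, with both drugs at those doses, or with neither drug. Each line is a single cell line, each of the 8 groups had 2 libraries, and the libraries named replicate 1 and replicate 2 carry the numbers I and II of the labels. The labels call the untreated groups controls, taken here as a dose of 0 for both drugs. The study's methods state that genistein, but not gemcitabine, was dissolved in DMSO, without saying whether the untreated cells received it. Poly-A RNA was sequenced, and 12943482 to 31991860 reads per library were counted to genes (median 16059396.5). The replicates were described as biological, and p-values measure only the spread between these libraries. In bulk RNA, fewer cells that make a transcript and less transcript per cell cannot be told apart.

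Receptors of the G protein-coupled class switch on heterotrimeric G proteins by loading the alpha subunit with GTP. RGS proteins bind the active alpha subunit through their RGS domain and speed up its GTP hydrolysis, which ends the signal to effectors such as adenylyl cyclase and phospholipase C beta. RGS2, RGS3, RGS4, RGS5 and RGS16 belong to the R4 subfamily, most of which are small proteins with little beyond the RGS domain. RGS2 is known for its preference for the alpha subunit Gq and for rapid induction by stress and second messengers, and RGS5 for its abundance in pericytes. RGS4, RGS5 and RGS16 begin with a cysteine that the N-degron pathway can read in the presence of oxygen, so the protein can be short-lived where the transcript is abundant. RGS10, RGS12 and RGS14 form the R12 subfamily, in which RGS12 and RGS14 also carry a GoLoco motif that holds inactive Gi subunits. RGS17 and RGS20 form the RZ subfamily, which acts on Gz and Gi subunits. RGS4 and RGS5 lie side by side on chromosome 1 in GRCh37, RGS4 (ENSG00000117152) from 163038565 to 163046592 on the plus strand and RGS5 (ENSG00000143248) from 163080911 to 163291581 on the minus strand, with 34318 bases between their ends. RGS2 (ENSG00000116741) lies on the same chromosome from 192778169 to 192781405, plus strand, and RGS16 (ENSG00000143333) from 182567758 to 182573524, minus strand.

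The sequences just upstream of RGS2, RGS16, RGS4 and RGS5 are shown. These 4 genes were the members called under both drugs in MiaPaCa2, RGS2 and RGS16 upward and RGS4 and RGS5 downward. RGS14 and RGS20, called with gemcitabine in MiaPaCa2 and in PANC1 respectively, are not shown. The sequences come from RefSeq on GRCh38.p14, 5′ to 3′ on the gene's strand, and all 4 members were matched by symbol. Where RefSeq lists several starts, the start with the most MiaPaCa2 control FPKM in its transcripts was used. For RGS5 the transcripts at that start held 264 FPKM of a gene mean of 544, and its leading isoform, RGS5-206, was not among them. RGS2 spans chr1:192808789-192809038 (plus strand), RGS16 chr1:182604390-182604639 (minus strand) and RGS5 chr1:163202917-163203166 (minus strand), each covering the 250 bases before the start. RGS4 spans chr1:163069111-163069250 (plus strand), the first 140 bases of its window, because the other 110 lie in exons of the transcripts RGS4-204 and RGS4-206. Capitals mark the box CCAAT or its reverse ATTGG, and the GC box GGGCGG or its reverse CCGCCC.
RGS2: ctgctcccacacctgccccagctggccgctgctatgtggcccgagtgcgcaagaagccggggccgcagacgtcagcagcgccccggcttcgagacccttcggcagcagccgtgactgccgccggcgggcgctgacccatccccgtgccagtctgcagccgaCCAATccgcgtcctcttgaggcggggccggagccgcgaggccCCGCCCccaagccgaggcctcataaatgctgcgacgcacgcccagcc
RGS16: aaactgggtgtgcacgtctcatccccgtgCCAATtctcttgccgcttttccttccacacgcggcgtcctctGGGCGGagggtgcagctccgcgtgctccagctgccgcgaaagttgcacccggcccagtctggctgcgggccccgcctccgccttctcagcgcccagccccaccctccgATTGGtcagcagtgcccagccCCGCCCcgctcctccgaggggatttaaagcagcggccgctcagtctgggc
RGS4: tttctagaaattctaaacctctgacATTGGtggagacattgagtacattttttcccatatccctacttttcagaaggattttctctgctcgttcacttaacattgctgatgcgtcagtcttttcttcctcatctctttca
RGS5: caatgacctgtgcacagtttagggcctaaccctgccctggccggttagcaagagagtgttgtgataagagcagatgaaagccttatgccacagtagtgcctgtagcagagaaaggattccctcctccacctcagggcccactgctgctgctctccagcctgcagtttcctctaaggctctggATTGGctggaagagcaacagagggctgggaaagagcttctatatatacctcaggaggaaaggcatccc
The RGS2 window held 28 CpG dinucleotides and the RGS16 window 22, against a median of 11 over 35116 RefSeq promoter windows, while the RGS4 window held 6 and the RGS5 window 1. GGGCGG, on either strand, occurred in the windows of RGS2 and RGS16 and in 42.6% of all windows, and CCAAT in all 4 windows and in 32.0% of all. TATAAA occurred in the RGS4 window alone, at -30 to -25 in the bases not printed, and in 10.7% of all. The palindrome TGACGTCA (1.65% of all windows) and TGANTCA (6.57%) matched none of the 4. No matches of different motifs overlapped. A match is a string of letters and no measured binding, and the response of these genes was not tested against it.

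Markers were checked in both lines, and counted where their mean over the 8 libraries of a line passed 1 FPKM. KRT8, a keratin of simple epithelia, was at 369 to 668 FPKM in MiaPaCa2, where 3 of 6 epithelial markers passed by that mean and the adhesion genes EPCAM and CDH1 were at or near 0, with CDH1 at most 0.0213 and KRT7 between 0.17 and 1.7. All 6 passed 1 FPKM in PANC1. Of 3 mesenchymal markers, 2 passed in MiaPaCa2 and all 3 in PANC1. VIM, which encodes vimentin, was at 2340 to 3880 FPKM in MiaPaCa2 and 1400 to 2730 in PANC1. These levels lay above those of KRT8 in each line. ZEB1 was at 1.82 to 4.11 FPKM in MiaPaCa2 and 2.23 to 5.15 in PANC1. CDH2 was at most 0.0102 FPKM in MiaPaCa2 and at least 8.06 in PANC1. Of 7 pericyte and smooth muscle markers, the cells RGS5 is known for, 2 passed 1 FPKM in MiaPaCa2, NOTCH3 at 14.6 to 40.9 and ACTA2 at 5.07 to 12.7, and the defining receptor PDGFRB was at most 0.244. The 7 summed to 23.6 to 54.6 FPKM in MiaPaCa2 and 12.5 to 19.2 in PANC1, where 4 passed 1 FPKM, and their part in the RGS5 level was not tested. By the same mean no fibroblast, endothelial, leukocyte, acinar or islet marker passed in either line, the highest single library being CDH5, an endothelial cadherin, at 0.269 to 1.72 FPKM in MiaPaCa2.

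The lines carried the family at unlike levels, and in MiaPaCa2 RGS4 and RGS5 made up most of it. RGS4 stood at 936 and 879 FPKM in the MiaPaCa2 controls and at 0.257 and 0.0747 in the PANC1 controls, from 29274 and 22595 against 6 and 7 counted reads. RGS5 stood at 591 and 497 FPKM in the MiaPaCa2 controls and at 0.475 and 0.788 in the PANC1 controls, from 8222 and 6404 against 9 and 19 reads. By mean FPKM, RGS4 was 5480-fold and RGS5 861-fold higher in MiaPaCa2, and by CPM (counts scaled to library size and TMM factors) the ratios were 6760 and 947, each resting on a few reads in PANC1. Among the 16311 genes above 1 FPKM in the MiaPaCa2 controls, RGS4 ranked 207 and RGS5 ranked 359, whereas the highest member in the PANC1 controls, RGS10, ranked 2585 of 17091. RGS4 and RGS5 together held 89.8% and 89.3% of the summed FPKM of the 10 members in the MiaPaCa2 controls and 0.406% to 1.41% in the 8 PANC1 libraries. In PANC1, RGS4 did not pass 1.07 FPKM (3 to 14 reads) and RGS5 did not pass 1.73 FPKM (9 to 19 reads) in any library. Over all genes, 52.3% of those tested differed between the untreated lines, and nothing is read from that share for genes chosen by this contrast.

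**Figure D1:**
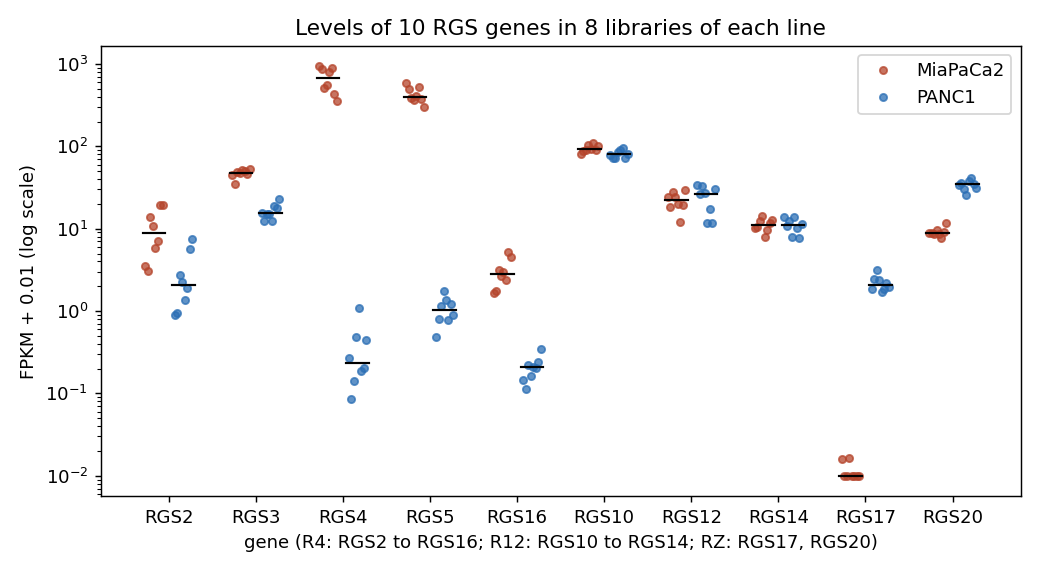
FPKM + 0.01 on a log axis of the 10 RGS genes, 1 point for each of the 8 libraries of a line and a bar at their median, with the lines in separate colours. RGS4 and RGS5 sit at 305 FPKM or above in every MiaPaCa2 library and at 1.73 FPKM or below in every PANC1 library, while RGS10 lies at 71.9 FPKM or above in all 16.

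RGS16, RGS2 and RGS3 were lower in untreated PANC1. RGS16 had 1.66 and 1.75 FPKM in the MiaPaCa2 controls against 0.136 and 0.104 in the PANC1 controls, a 14.2-fold difference of means. RGS2 had 3.48 and 3.04 FPKM against 0.893 and 0.944 (3.55-fold). RGS3 had 44.3 and 35.4 FPKM against 15.7 and 12.5 (2.83-fold). RGS3 (ENSG00000138835, chromosome 9, 116207011 to 116360023, plus strand) is the long R4 member with extensions beyond its RGS domain. Both RZ members were higher in PANC1. RGS17 (ENSG00000091844, chromosome 6, 153325594 to 153452417, minus strand) had 1.83 and 2.44 FPKM in the PANC1 controls and at most 1 read in each of the 8 MiaPaCa2 libraries, at least 29.3-fold higher against a floor of 3 reads per library. RGS20 (ENSG00000147509, chromosome 8, 54764355 to 54871863, plus strand) had 34.4 and 36.3 FPKM in the PANC1 controls against 8.90 and 8.75, a 4.01-fold difference. The R12 genes lay closest between the lines. RGS10 (ENSG00000148908, chromosome 10, 121259329 to 121302231, minus strand) had a MiaPaCa2 mean 1.11-fold that of PANC1. RGS12 (ENSG00000159788, chromosome 4, 3294748 to 3441640, plus strand) and RGS14 (ENSG00000169220, chromosome 5, 176784925 to 176799597, plus strand) had PANC1 means 1.40-fold and 1.18-fold those of MiaPaCa2 by FPKM, and 1.65-fold and 1.80-fold by CPM.

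By mean control FPKM the order in MiaPaCa2 was RGS4 (908 ± 40.2, SD, n = 2), RGS5 (544 ± 66.5), RGS10 (84 ± 4.64), RGS3 (39.9 ± 6.31), RGS12 (21.4 ± 4.04), RGS14 (10.4 ± 0.237), RGS20 (8.83 ± 0.105), RGS2 (3.26 ± 0.312), RGS16 (1.70 ± 0.0602) and RGS17 (0.00309 ± 0.00437), and no neighbouring pair overlapped between the 2 control libraries. In PANC1 it was RGS10 (75.5 ± 5.03), RGS20 (35.4 ± 1.31), RGS12 (30 ± 5.29), RGS3 (14.1 ± 2.27), RGS14 (12.3 ± 2.20), RGS17 (2.13 ± 0.435), RGS2 (0.918 ± 0.0356), RGS5 (0.632 ± 0.221), RGS4 (0.166 ± 0.129) and RGS16 (0.120 ± 0.0226). RGS3 and RGS14 overlapped there, as did RGS4 and RGS16. Both levels are per length, but FPKM of a gene with many short isoforms depends on how its reads were shared among them. On CPM per kilobase of all annotated exons, a scale added after the data were seen, the order changed below the leading genes, and in PANC1 RGS4 took the last place from RGS16. RGS12 moved to the last place before RGS17 in MiaPaCa2, at 1.77 ± 0.0473, below RGS16 at 2.05 ± 0.0739. RGS4, RGS5 and RGS10 kept the first 3 places there, at 371, 74.7 and 35.0, and RGS10 and RGS20 led PANC1 at 31.9 and 13.

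The isoform table splits each gene's FPKM over its transcripts. RGS2 was carried in the controls by the protein-coding RGS2-201 (100%), and RGS16 has 1 listed isoform, RGS16-201. RGS4-202 took 44.9% and 45.6% of RGS4 in the MiaPaCa2 controls, and RGS5-206 took 31.8% and 26.6% of RGS5. RGS10-201 led RGS10 with 53.4% and 55.4% in MiaPaCa2 and 41.1% and 52.8% in PANC1. Some members had a leading isoform with no full reading frame. The retained-intron transcript RGS3-224 held 25.1% and 30.7% of RGS3 in MiaPaCa2 and 35.8% and 33.1% in PANC1. RGS20-209, annotated as a target of nonsense-mediated decay, held 40.5% and 34.6% of RGS20 in MiaPaCa2 and 21.7% and 42.4% in PANC1. Its lead was by the control mean in each line. In PANC1 control 1 RGS20-204 was higher, at 12.1 against 7.48 FPKM, and in MiaPaCa2 control 2 RGS20-208 was, at 3.31 against 3.03. For RGS14 the split was unstable between replicates, with RGS14-204 at 58.3% in 1 MiaPaCa2 control and 0.046% in the other, so no isoform change of RGS14 was compared.

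The genes around the RGS4 and RGS5 pair were unlike between the lines in part. DDR2, a collagen receptor 281 kb before RGS4, had 20.1 and 17.8 FPKM in the MiaPaCa2 controls and 0.253 and 0.0644 in the PANC1 controls. CCDC190, 200 kb before RGS4, had 25.5 and 24.6 against 0 and 0.0305. Both thus lay on the same side as RGS4 and RGS5. HSD17B7, a sterol enzyme that lies between DDR2 and CCDC190, had 18.6 and 20 in MiaPaCa2 and 10.2 and 9.46 in PANC1. NUF2, a kinetochore gene whose locus overlaps that of RGS5 on the opposite strand without a shared exon, had 54.5 and 38.5 against 11.6 and 25. The neighbours were taken by position and their difference was not tested. RGS5 itself shares 534 exon bases (8.06% of its own) with a long noncoding gene on the same strand, and its reads there may belong to either.

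**Figure D2:**
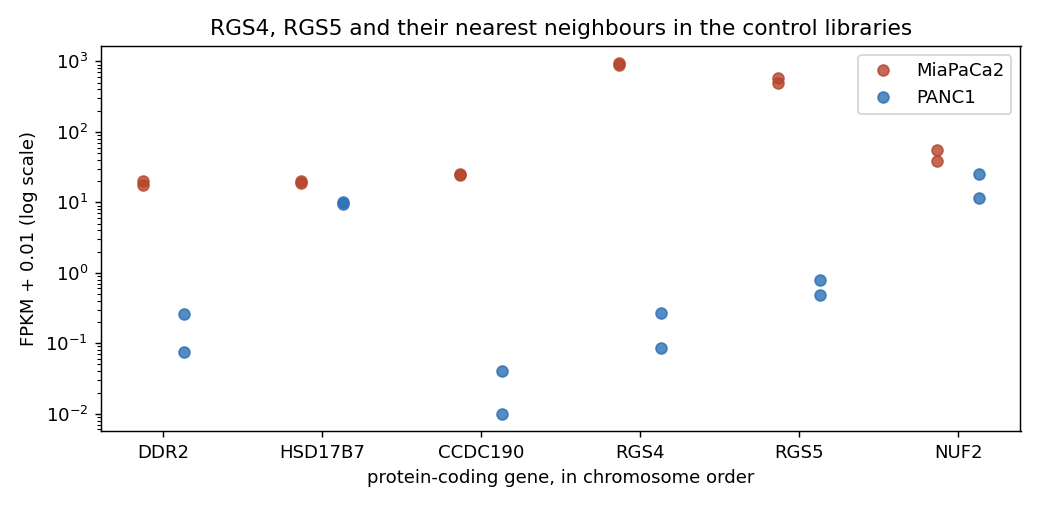
FPKM + 0.01 on a log axis of RGS4, RGS5 and their nearest protein-coding neighbours in the 4 control libraries, in chromosome order, with MiaPaCa2 and PANC1 libraries as separate points. DDR2 (17.8 and 20.1 against 0.0644 and 0.253 FPKM) and CCDC190 lie with RGS4 and RGS5 in having far more FPKM in MiaPaCa2, whereas HSD17B7 is at 9.46 FPKM or above in both lines.

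Treatments were compared within each line by limma-voom over all genes, and the thresholds of the study decided a call, an adjusted p no higher than 0.05, a log2 change of 0.4 or more in size and over 1 FPKM on average in the treated group. In MiaPaCa2, RGS2 and RGS16 rose and RGS4 and RGS5 fell under gemcitabine and under both drugs. In PANC1, RGS2 rose under the same 2 treatments and RGS20 fell under gemcitabine. Of the 9 members tested in MiaPaCa2 (RGS17 had too few reads), gemcitabine called 5, 3 up and 2 down, where 29.6% of all 16064 tested genes were called, 15% up and 14.6% down. Genistein called 2 up and none down (8.31% of all genes, 4.18% up), and both drugs against control called 2 up and 2 down (40.5% of all genes, 20.3% up and 20.2% down). Adding genistein to gemcitabine, that is both drugs against gemcitabine, called 2 up (5.88% of all genes, 4.05% up). Of the 9 members tested in PANC1 (RGS4 had too few reads), gemcitabine called 1 up and 1 down (7.52% of all 16909 genes, 4.49% up and 3.03% down), and both drugs against control called 1 up (17.1%, 10.2% up). The median log2 fold change of the members under both drugs was 0.08 in MiaPaCa2 and -0.09 in PANC1, against -0.01 and 0.01 over all genes. No test was made over the list, and the single-drug and combined comparisons of a line share its control libraries.

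Genistein alone called no member in PANC1 by limma-voom, where 0.0591% of all genes were called, with 2 members at an unadjusted p under 0.05 and none called by edgeR or DESeq2. Both drugs against gemcitabine called none there either (0.0177% of all genes), with 1 at an unadjusted p under 0.05, none called by edgeR and 1, RGS2, by DESeq2. The interaction, which asks whether the joint change differs from the sum of the single changes on the log2 scale, called no member in either line by limma-voom, edgeR or DESeq2, and 0.0249% of all genes in MiaPaCa2 and 0% in PANC1. It had 1 member, RGS4, at an unadjusted p under 0.05 in MiaPaCa2 and none in PANC1.

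**Figure D3:**
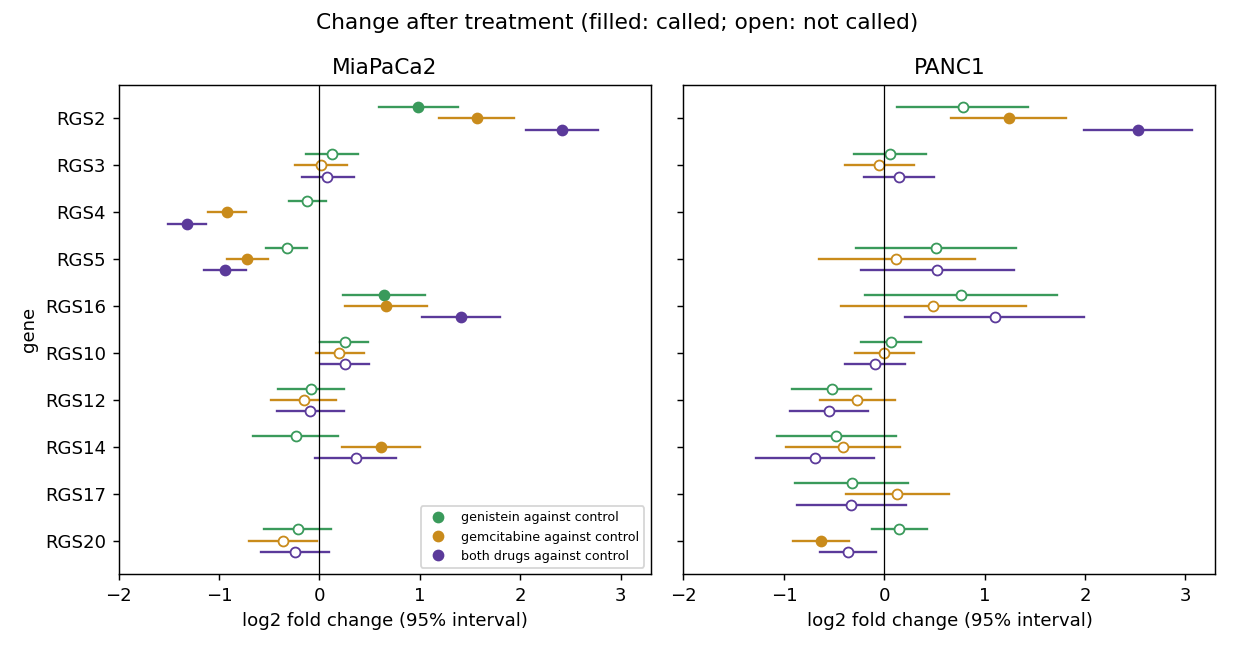
Log2 fold change of each tested RGS gene with its 95% interval from limma-voom, in MiaPaCa2 and PANC1, for each treatment against control, with filled points for called changes. The RGS2 intervals lie above 0 in all 3 comparisons of each line, and those of RGS4 and RGS5 lie below 0 in MiaPaCa2 under gemcitabine and both drugs.

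RGS2 was the member with the largest rise in both lines under both drugs. Its FPKM in MiaPaCa2 was 3.48 and 3.04 in the controls, 5.85 and 7.04 with genistein, 14.0 and 10.8 with gemcitabine, and 19.5 and 19.4 with both drugs. The groups did not overlap and stood in that order. On the log2 scale RGS2 rose by 0.98 ± 0.18 (SE, adjusted p = 0.00631) with genistein, by 1.57 ± 0.17 (adjusted p = 3.6e-05) with gemcitabine and by 2.42 ± 0.17 (adjusted p = 4.0e-07) with both drugs. Genistein on top of gemcitabine added 0.85 ± 0.13 (adjusted p = 0.00259), and the interaction of -0.13 (95% interval -0.61 to 0.35, adjusted p = 0.908) was not called. The genistein call on RGS2 was lost without control replicate 1 and without control replicate 2 (adjusted p up to 0.0709), and the added call was lost without gemcitabine replicate 1 (0.0635). The gemcitabine and combined calls held in each left-out fit.

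In PANC1 the same gene started lower and stood in the same order. RGS2 had 0.893 and 0.944 FPKM in the controls (27 and 42 reads), 1.34 and 1.89 with genistein, 2.73 and 2.24 with gemcitabine, and 5.64 and 7.52 with both drugs. RGS2 rose by 2.53 ± 0.23 on the log2 scale with both drugs (adjusted p = 8.6e-04) and by 1.24 ± 0.25 with gemcitabine (adjusted p = 0.0255). The gemcitabine call was lost when any 1 of the 4 libraries was left out (adjusted p 0.0647 to 0.165), whereas the combined call held in all 4 such fits. With genistein alone the change was 0.78 ± 0.28 (adjusted p = 0.201), and on top of gemcitabine it was 1.3 ± 0.21 (adjusted p = 0.111, unadjusted p = 2.6e-04). The RGS2 response did not pass the test of a difference between lines, with PANC1 minus MiaPaCa2 at 0.03 (95% interval -0.56 to 0.63) for both drugs and -0.43 (-1.06 to 0.21) for gemcitabine. Among all genes tested in both lines, 0.517% kept the order control, genistein, gemcitabine, both drugs without overlap in both lines, 4.91% did in MiaPaCa2 and 2.26% in PANC1. RGS2 was the only member of the 10 to do so in either line, a pattern picked out after its values were seen.

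**Figure D4:**
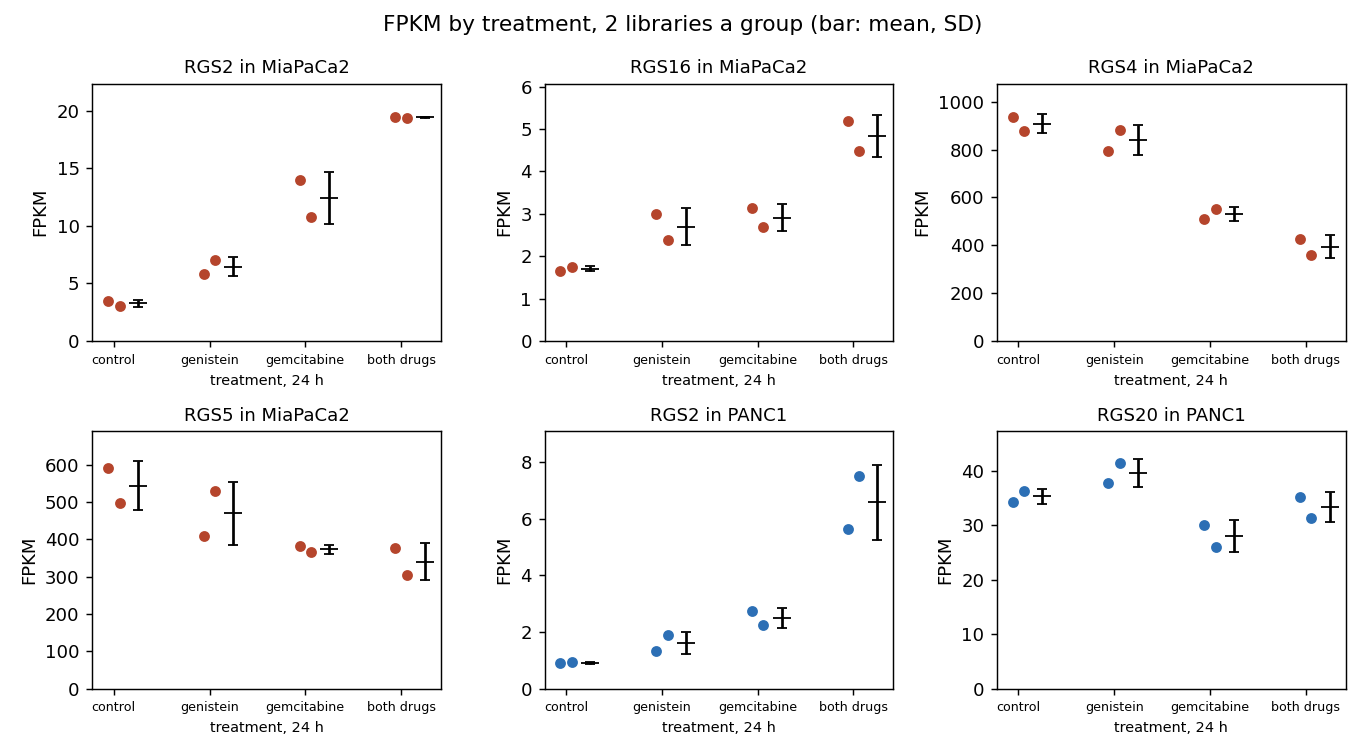
FPKM by treatment, 1 point per library with the group mean and its SD beside them, for RGS2, RGS16, RGS4 and RGS5 in MiaPaCa2 and for RGS2 and RGS20 in PANC1. RGS2 climbs from 3.26 to 19.4 FPKM in MiaPaCa2 and from 0.918 to 6.58 in PANC1 between controls and both drugs, while RGS4 drops from 908 to 394 FPKM in MiaPaCa2.

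RGS16 moved the same way in MiaPaCa2 at a lower level. Its FPKM was 1.66 and 1.75 in the controls, 3.0 and 2.39 with genistein, 3.14 and 2.68 with gemcitabine, and 5.19 and 4.49 with both drugs. The single-drug groups overlapped each other, and both lay between the controls and the combination. With both drugs RGS16 rose by 1.41 ± 0.18 (adjusted p = 4.2e-05), a call that held without any 1 library, and with both drugs against gemcitabine by 0.75 ± 0.16 (adjusted p = 0.0153), a call lost without gemcitabine replicate 1 and without gemcitabine replicate 2 (up to 0.145). The single-drug calls rested on single libraries. The gemcitabine rise of 0.66 ± 0.19 (adjusted p = 0.0154) was lost without gemcitabine replicate 1, control replicate 1 or control replicate 2 (up to 0.116). The genistein rise of 0.64 ± 0.19 (adjusted p = 0.0469) was lost without genistein replicate 1, control replicate 1 or control replicate 2 (up to 0.257). In PANC1 RGS16 had 7 to 15 reads and 0.104 to 0.341 FPKM per library, below the 1 FPKM a call needs, with a log2 change of 1.1 ± 0.38 for both drugs (adjusted p = 0.0815).

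RGS4, the most abundant member in MiaPaCa2, fell with gemcitabine. It had 936 and 879 FPKM in the controls, 795 and 883 with genistein, 509 and 550.0 with gemcitabine, and 427 and 360.0 with both drugs. The gemcitabine and combined groups lay below all control and genistein libraries. RGS4 fell by 0.92 ± 0.09 on the log2 scale with gemcitabine (adjusted p = 1.4e-05) and by 1.32 ± 0.09 with both drugs (adjusted p = 3.6e-07), and both calls held in each of 13 alternative settings and each left-out fit. Genistein alone gave -0.12 (adjusted p = 0.407). On top of gemcitabine it gave -0.40 ± 0.09 (adjusted p = 0.0205), just short of the fold threshold. This change was called in 4 alternative settings that kept that threshold and all libraries. After GC correction it was -0.31 and not called. The interaction was -0.28 (95% interval -0.55 to -0.01, adjusted p = 0.588).

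RGS5 fell in the same comparisons. It had 591 and 497 FPKM in the MiaPaCa2 controls, 410.0 and 530.0 with genistein, 382 and 365 with gemcitabine, and 376 and 305 with both drugs. The gemcitabine and combined groups overlapped each other and lay below the other 4 libraries. RGS5 fell by 0.72 ± 0.10 with gemcitabine (adjusted p = 1.4e-04) and by 0.94 ± 0.10 with both drugs (adjusted p = 7.1e-06). Genistein alone gave -0.32 ± 0.09 (adjusted p = 0.0434), under the fold threshold. With the fall of RGS4 and RGS5, their joint share of the members' FPKM was 80.0% and 74.1% in the MiaPaCa2 libraries with both drugs. In PANC1 RGS5 gave 0.53 ± 0.33 for both drugs (adjusted p = 0.303) from 9 to 19 reads per library, and the difference of that response between lines was 1.39 ± 0.39 (95% interval 0.54 to 2.23, adjusted p = 0.0272), where 18.1% of all genes differed. That call was lost without MiaPaCa2 control replicate 1, without PANC1 control replicate 1 or 2, or without replicate 1 of PANC1 with both drugs (adjusted p up to 0.155).

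The GC content of the counted transcripts moved with gemcitabine and with both drugs in MiaPaCa2, and a correction for it shrank the fall of RGS5 below the fold threshold. The slope of log2 CPM on exon GC content, per 10 points of GC and relative to the line's mean, was -0.23 and -0.14 in the MiaPaCa2 controls, -0.0019 and -0.16 with genistein, 0.14 and 0.05 with gemcitabine, and 0.05 and 0.29 with both drugs. The gemcitabine and combined libraries lay above the controls, and 1 genistein library lay within the control range. In PANC1 the slopes were 0.29 and -0.07 in the controls and -0.16 and 0.23 with both drugs. Replicates of a group lay far apart there, and these groups overlapped. RGS5 has 37.1% GC, RGS4 40.5% and RGS2 40.9%, below the median of 48.1% over tested genes, and RGS14 has 63.6%. After removal of each library's GC trend, RGS5 changed by -0.28 with gemcitabine and -0.30 with both drugs. RGS4 kept its calls at -0.63 and -0.94. RGS2 stood at 1.84 and 2.77, above its uncorrected values, and RGS16, at 53.2% GC, stood at 1.19 with both drugs.

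**Figure D5:**
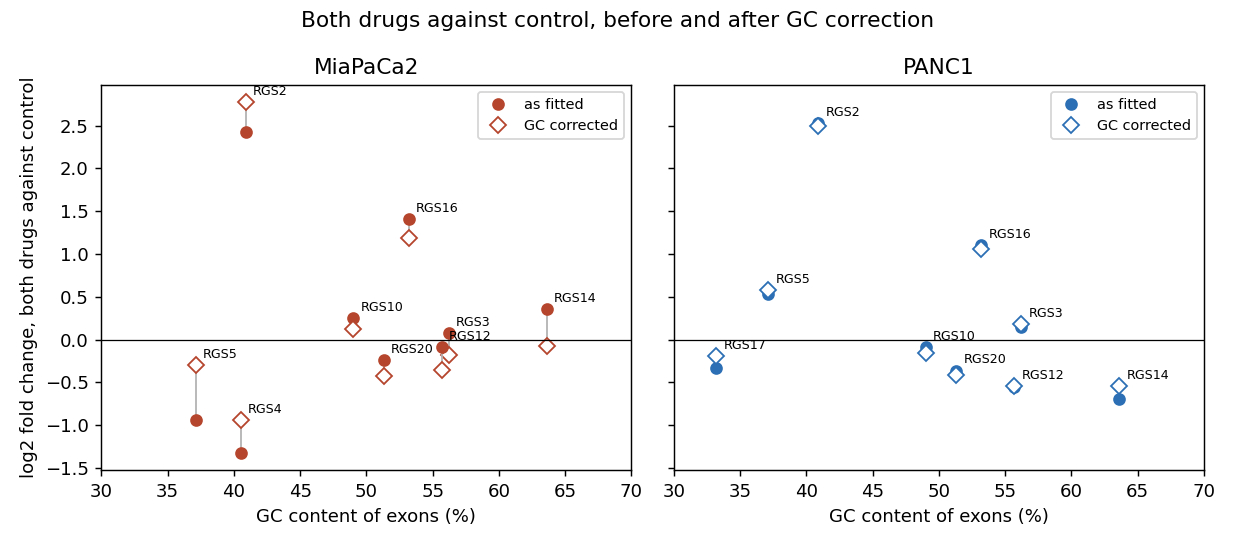
Log2 fold change of each member under both drugs against control, by exon GC content in percent, as fitted and after removal of each library's GC trend, for MiaPaCa2 and PANC1. In MiaPaCa2, RGS5 at 37.1% GC moves from -0.94 to -0.30 and RGS4 at 40.5% from -1.32 to -0.94, while RGS2 at 40.9% moves from 2.42 to 2.77.

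RGS3, the remaining R4 gene, was not called in any comparison. It ranged from 35.4 to 52.8 FPKM in MiaPaCa2 and from 12.3 to 22.7 in PANC1, with log2 changes of 0.08 (95% interval -0.17 to 0.34) and 0.15 (-0.20 to 0.50) for both drugs. Of the R12 genes, RGS10 had the narrowest range of the members expressed in both lines, with a highest library 1.36 times the lowest in MiaPaCa2 and 1.33 times in PANC1, and log2 changes for both drugs of 0.25 (0.02 to 0.49, adjusted p = 0.0694) and -0.09 (-0.39 to 0.21). RGS12 gave -0.09 (-0.42 to 0.24) in MiaPaCa2 and -0.55 (-0.94 to -0.16, adjusted p = 0.0536) in PANC1, and was called there with all 16 libraries in one model, by DESeq2 and after GC correction. In PANC1 its FPKM with both drugs was 11.8 in 1 library and 30.3 in the other, while its reads were 368 and 529, so the 2 tables disagree on the spread of RGS12.

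RGS14, which scaffolds Ras and MAP kinase signalling beside its action on Gi, was called up in MiaPaCa2 with gemcitabine. It had 10.2 and 10.6 FPKM in the MiaPaCa2 controls, 7.86 and 9.51 with genistein, 12.5 and 14.2 with gemcitabine, and 11.6 and 12.7 with both drugs. Gemcitabine libraries lay above the controls, with a log2 change of 0.61 ± 0.18 (adjusted p = 0.0179). The call was lost without either gemcitabine library or without control replicate 1 (adjusted p up to 0.314). It held in 8 of 13 alternative settings, and was lost with all 16 libraries in one model (adjusted p = 0.0861), on log2 FPKM at either pseudocount, and after GC correction, where the value was 0.18. In PANC1 RGS14 had 13.8 and 10.7 FPKM in the controls, 13.9 and 10.1 with genistein, 12.4 and 7.90 with gemcitabine, and 7.63 and 11.5 with both drugs. These groups overlapped, and the log2 changes were -0.41 ± 0.25 (adjusted p = 0.338) with gemcitabine and -0.69 ± 0.26 (adjusted p = 0.0966) with both drugs. The test of the difference between lines called RGS14 alone among the 10 members for gemcitabine (15.3% of all 17863 genes), and RGS14 and RGS5 for both drugs (18.1%). For genistein it called none (0.0336% of all genes), with 1, RGS4, at an unadjusted p under 0.05 and none by edgeR or DESeq2. RGS4 (3 to 14 reads per library in PANC1) and RGS17 (at most 1 in MiaPaCa2) entered these tests through the other line alone. Their values are therefore no test of a difference in response.

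Of the RZ genes, RGS20 changed in PANC1. It had 34.4 and 36.3 FPKM in the PANC1 controls, 37.8 and 41.4 with genistein, 30.1 and 26.0 with gemcitabine, and 35.3 and 31.4 with both drugs. The gemcitabine libraries lay below all others, and the combined libraries overlapped the controls by FPKM. By CPM the combined libraries lay below the controls, at 33.0 and 31.1 against 42.4 and 41.0. RGS20 fell by 0.63 ± 0.12 with gemcitabine (adjusted p = 0.0225), a call lost without gemcitabine replicate 1 or gemcitabine replicate 2 (adjusted p up to 0.198), and gave -0.36 ± 0.12 with both drugs (adjusted p = 0.0757). In MiaPaCa2 RGS20 ranged from 7.80 to 11.8 FPKM and gave -0.36 ± 0.16 with gemcitabine (adjusted p = 0.0877), and the difference between lines was -0.37 (95% interval -0.76 to 0.03). After GC correction RGS20 was called down in MiaPaCa2, at -0.46 with gemcitabine (adjusted p = 0.00991) and -0.42 with both drugs (adjusted p = 0.0126), whereas on log2 FPKM the values were above 0 and not called. RGS17 had 1.68 to 3.10 FPKM in PANC1 (56 to 229 reads) and gave -0.33 ± 0.24 with both drugs (adjusted p = 0.372).

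Likeness to other genes was measured by Pearson r of log2 CPM over the 8 MiaPaCa2 libraries, which fall into the 4 treatment groups and share their controls. Among the 3 genes most like RGS2 were KLF5 (r = 0.997) and PHYH (0.996). Those most like RGS4 were ERRFI1 (0.998), FOXJ3 (0.996) and LMNB1 (0.996), those most like RGS5 were RPS6KC1 (0.998), SSB (0.997) and DOCK11 (0.997), and those most like RGS16 were STIM1 (0.990), THBS4 (0.989) and RPS6KA2 (0.986). High r was common. Of 16063 other genes, 1604 had r above 0.9 with RGS2, 1534 with RGS4, 1634 with RGS5 and 976 with RGS16.

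The rest of the RGS family and its pathway were followed through fixed gene lists, whose calls under both drugs stand beside 20.3% of all genes called up and 20.2% down in MiaPaCa2, and 10.2% up and 6.9% down in PANC1. Of 10 other canonical RGS genes, 2 could be tested in each line. RGS19, an RZ gene, rose by 0.59 ± 0.17 with gemcitabine in MiaPaCa2 (adjusted p = 0.0153), and RGS9, an R7 gene known from photoreceptors and striatum, rose by 2.03 ± 0.40 with both drugs (adjusted p = 9.4e-04) from 4 to 32 reads per library. None of the list was called in PANC1 by limma-voom. RGS11, another R7 gene, had 1.52 to 5.54 FPKM in PANC1 and at most 0.265 in MiaPaCa2. The median log2 change of this list under both drugs was 1.2 over the 2 genes tested in MiaPaCa2 and -0.23 in PANC1, against -0.01 and 0.01 over all genes.

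The 16 genes for G alpha subunits of all classes had 11 members tested in MiaPaCa2, of which both drugs called 4 up and 2 down (40.5% of all genes called), and 12 in PANC1, of which 2 were called down (17.1% of all genes called, 6.9% down). Their medians were 0.01 and -0.33. GNAO1, which encodes the neuronal Go subunit, rose by 1.92 ± 0.20 in MiaPaCa2 (adjusted p = 7.4e-06). GNAI1, a Gi subunit, rose by 0.94 ± 0.32 with both drugs (0.0245), and GNAI3, another, fell by 0.65 ± 0.12 with gemcitabine (9.2e-04). In PANC1 GNA12 fell by 0.70 ± 0.09 (0.00262) and GNAI2 fell by 0.54 ± 0.12 (0.0175) with both drugs. Of 17 beta and gamma genes, 10 were tested per line, with 4 called up and none down in MiaPaCa2 (median 0.52, beside 20.3% and 20.2% of all genes) and none up and 2 down in PANC1 (median -0.15, beside 10.2% and 6.9%) under both drugs. GNG11, a gamma subunit, rose by 1.54 ± 0.25 in MiaPaCa2 (2.3e-04) and fell by 0.76 ± 0.12 in PANC1 (0.00505), a difference between lines of -2.38 ± 0.25 (6.6e-05). GNG4 rose by 1.11 ± 0.13 in MiaPaCa2 (2.0e-05), and GNB1, a beta subunit, fell by 0.65 ± 0.07 in PANC1 (0.00117). The values in parentheses are adjusted p from limma-voom.

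The receptor kinases and arrestins, which silence the receptor as RGS proteins silence the G protein, had 7 of 11 members tested in MiaPaCa2, with 2 called up and none down under both drugs (median 0.33), beside 20.3% and 20.2% of all genes. GRK5, a receptor kinase, rose by 1.32 ± 0.15 there (adjusted p = 1.7e-05), by 0.55 ± 0.16 with genistein (0.0431) and by 0.77 ± 0.14 with genistein on top of gemcitabine (0.00628). In PANC1 GRK5 fell by 0.52 ± 0.12 with gemcitabine (0.0358). Its difference between lines with both drugs was -1.97 ± 0.20 (3.9e-05). In PANC1 8 were tested, with 1 up and 2 down (median -0.12, beside 10.2% and 6.9% of all genes), and ARRB1, beta-arrestin 1, fell by 1.38 ± 0.12 (7.2e-04). Of 9 GoLoco and RGS-binding regulators, 7 were tested per line, with 1 up and 1 down in MiaPaCa2 (median 0.07, 40.5% of all genes called) and 1 up in PANC1 (median 0.00, 17.1% of all genes called). RAP1GAP, a Rap1 GTPase-activating protein, rose by 1.92 ± 0.15 in MiaPaCa2 (8.1e-07) and by 0.84 ± 0.22 in PANC1 (0.0324), and GPSM2, which orients the mitotic spindle, fell by 1.21 ± 0.12 in MiaPaCa2 (4.4e-06). All 9 genes with a more distant RGS box were tested, with 2 up and 3 down in MiaPaCa2 (median -0.11, 40.5% of all genes called) and none by limma-voom in PANC1 (median -0.27, 17.1% of all genes called). AXIN2, a target and inhibitor of Wnt signalling, rose by 1.67 ± 0.31 (5.9e-04) and SNX13, a sorting nexin, fell by 1.03 ± 0.17 (2.6e-04) in MiaPaCa2 with both drugs.

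The 6 enzymes of the N-degron pathway, which can remove RGS4, RGS5 and RGS16 proteins, were all tested. UBR2 and UBR1, ubiquitin ligases of the pathway, fell by 0.58 ± 0.11 (adjusted p = 9.7e-04) and 0.44 ± 0.13 (0.0133) with both drugs in MiaPaCa2, and none was called in PANC1 by limma-voom (medians -0.24 and -0.11, beside 40.5% and 17.1% of all genes called). Of 13 effectors, 7 were tested in MiaPaCa2, with 2 up and 1 down (median 0.07, 40.5% of all genes called), and 9 in PANC1, with 2 up (median 0.03, 17.1% of all genes called). The adenylyl cyclases ADCY5 and ADCY6 rose by 1.70 ± 0.20 (1.8e-05) and 0.93 ± 0.10 (1.4e-05) in MiaPaCa2, and ADCY1 and ADCY6 rose by 0.78 ± 0.21 (0.0355) and 0.48 ± 0.12 (0.0321) in PANC1. GPER1, the G protein-coupled estrogen receptor that the study followed by name, had 0.595 and 0.435 FPKM in the MiaPaCa2 controls, 0.528 and 0.427 with genistein, 1.51 and 1.27 with gemcitabine, and 1.05 and 1.83 with both drugs. It rose by 1.13 ± 0.33 with gemcitabine (0.0162) and by 1.3 ± 0.33 with both drugs (0.00498) and gave -0.16 ± 0.38 with genistein (0.822). In PANC1, at 1.97 to 3.88 FPKM, GPER1 gave 0.19 ± 0.31 with gemcitabine (0.746) and 0.18 ± 0.32 with both drugs (0.731). The difference between lines with gemcitabine was -1.03 ± 0.55 (0.22) and was not called.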

How the data were processed

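RNA of MiaPaCa2 and PANC1 cells was sequenced from poly-A stranded libraries, 2 per group. The authors deposited raw read counts per gene, made with HTSeq 0.6.1 after TopHat2 2.0.4 alignment to GRCh37 and Picard 1.29, and FPKM per gene and isoform from Cufflinks 2.1.1, as the paper and the submitters' processing notes state. Which annotation release and strand option the counting used is not given in the sources used here, and 176 count rows had no FPKM row. Counts were filtered with filterByExpr, TMM-normalized (edgeR 4.0.16) and compared by limma-voom in R 4.3.3 with limma 3.58.1, with a mean per group over the 8 libraries of a line, or all 16 for differences between lines, and Benjamini-Hochberg adjustment over all genes tested. A difference between lines or an interaction was called on adjusted p alone. SE are standard errors of the log2 fold change and intervals are 95%. FPKM are group values per library, with no count test. Depth limits low genes, since RGS4, RGS5 and RGS16 had 3 to 19 reads in PANC1. Gene coordinates are from GENCODE v44 lifted to GRCh37, and the fits were tested on simulated data. DESeq2 1.42.0 and edgeR's quasi-likelihood test were alternatives, with other normalizations, filters, pseudocounts on log2 FPKM of 1 and 0.1, the replicate block, GC correction and left-out libraries. The members and lists were chosen with earlier results of these data known. All 10 members are named. Per list and comparison at most the 2 called genes with the largest change are named, with GPER1 always. Some genes these rules name are not reported here.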

Additional observations from a re-analysis of the deposited data

Results flagged for a closer look

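The response of 2 members differed between PANC1 and MiaPaCa2 by the limma-voom test of the difference itself. For RGS14, PANC1 minus MiaPaCa2 was -1.11 ± 0.35 on the log2 scale with gemcitabine (adjusted p = 0.0488) and -1.12 ± 0.36 with both drugs (adjusted p = 0.0491). The gemcitabine value ranged from -1.13 to -0.56 over 10 alternatives, of which 4 kept the call (adjusted p 0.0275 to 0.279), and 2 of 8 left-out fits kept it (adjusted p 0.00719 to 0.253). The combined value ranged from -1.13 to -0.54, with the call kept in 5 of 10 alternatives and 3 of 8 left-out fits. RGS14 has 63.6% GC, and after GC correction the differences were -0.56 (adjusted p = 0.0419) and -0.58 (adjusted p = 0.0359). For RGS5, PANC1 minus MiaPaCa2 was 1.39 ± 0.39 with both drugs (adjusted p = 0.0272), a value that stayed between 0.84 and 1.56 over the alternatives, of which 8 of 10 kept the call, as did 4 of 8 left-out fits. The PANC1 side of the RGS5 difference rests on 9 to 19 reads per library.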

How the results depend on the processing

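Over 13 alternative settings and 4 left-out fits each, the combined-drug calls on RGS2, RGS4 and RGS16 and the gemcitabine calls on RGS2 and RGS4 in MiaPaCa2, and the combined call on RGS2 in PANC1, held throughout. Of 2122 alternative values of single members, 152 had the opposite sign, and none of those was called under either setting. With gemcitabine in MiaPaCa2, RGS14 lost its call with all 16 libraries in one model and on log2 FPKM at either pseudocount. Under GC correction, with and without the replicate block, RGS14 and RGS5 lost theirs and RGS20 was called. The number of members called in MiaPaCa2 with genistein was 2 and became 1 with all 16 libraries in one model, DESeq2, DESeq2 size factors, library size alone, no low-count filter or the replicate block, and 0 with limma-trend on log2 FPKM at either pseudocount. On adjusted p alone, without the fold and FPKM thresholds, RGS5 was called with genistein too (-0.32, adjusted p = 0.0434). For both drugs against gemcitabine in MiaPaCa2, 2 became 0 on log2 FPKM at either pseudocount and 3 with adjusted p alone, DESeq2 size factors, library size alone, no filter or the replicate block, which added RGS4 (-0.43 with library size alone, -0.40 with the block). In PANC1, 2 with gemcitabine became 0 with FPKM + 1, the replicate block or the 4 libraries alone, and 1 with FPKM + 0.1. PANC1 with genistein went from 0 to 1 under GC correction with and without the replicate block (RGS12, -0.50, adjusted p = 0.0197), where the calls over all genes went from 10 to 1212 and 737 with the block. Both drugs against gemcitabine in PANC1 went from 0 to 1 under 16 libraries, DESeq2 and GC correction with and without the replicate block (RGS2, 1.39, adjusted p = 0.0124 under GC correction), beside 3 calls over all genes that became 485, 208, 1161 and 709. Both drugs against control in PANC1 went from 1 to 3 with 16 libraries or DESeq2, which added RGS12 and RGS14, and to 4 under GC correction with and without the replicate block (RGS12 -0.54, RGS14 -0.54 and RGS20 -0.41 joined RGS2), beside 2897 calls over all genes that became 3930, 3024, 4891 and 4615. For differences between lines, the gemcitabine count of 1 became 0 with library size alone, no filter, and the replicate block with and without GC correction, and the combined count of 2 became 1 with library size alone or the replicate block and 0 with no filter or FPKM + 0.1. DESeq2 added RGS4 to the combined count (1.66, adjusted p = 0.0332). With FPKM + 1 that count held RGS4, RGS5 and RGS16 without RGS14, and the gemcitabine count held RGS5 in place of RGS14 at either pseudocount (1.11, adjusted p = 0.032, with FPKM + 1). The cause of these shifts was not tested. RGS4 had 3 to 14 reads per library in PANC1, too few to be tested within that line. RGS4 entered the fits of all 16 libraries through its MiaPaCa2 reads, so its calls there are no test of a PANC1 response. RGS16 was at 0.104 to 0.341 FPKM in PANC1, below the added 1, so FPKM + 1 compresses its changes in that line.

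Leaving out 1 library gave 3 to 4 calls in place of 5 for gemcitabine in MiaPaCa2 (3 without gemcitabine replicate 1 and without control replicate 1), 0 to 3 for genistein, 0 to 3 for both drugs against gemcitabine and 4 to 5 for both drugs against control. In PANC1 it gave 0 to 1 for gemcitabine and 1 to 3 for both drugs against control, and for differences between lines 0 to 1 with gemcitabine and 0 to 3 with both drugs. Values changed sign for RGS20 in MiaPaCa2 on log2 FPKM (0.037 and 0.040 with gemcitabine, 0.22 and 0.24 with both drugs, none called, against called falls of -0.46 and -0.42 under GC correction) and for RGS14 in MiaPaCa2 with both drugs under GC correction (-0.072, and -0.088 with the replicate block). The replicate numbers are labels alone. Deviations of same-numbered libraries from their group means correlated at -0.065 on average in MiaPaCa2 (-0.30 to 0.16) and -0.079 in PANC1 (-0.57 to 0.33), so no pairing was assumed. Library depth limits RGS4, RGS5, RGS16 in PANC1 and RGS17 in MiaPaCa2.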
